A study of Mus musculus with 14 samples.

Results

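The goblet cell mucus and secretory genes described here are Muc2, Fcgbp, Clca1, Zg16, Tff3, Spink4, Reg4, Agr2, Spdef and S100a6, taken by gene symbol from the annotation of the array platform. All 10 had 1 probe set among the 24675 genes named on the arrays, and all 10 passed the filter on dim values that left 15873 genes for testing. Each of 14 samples of sorted mouse crypt cells was hybridised to its own Affymetrix Mouse Gene 2.0 ST array. The Atg7KO mice carried floxed Atg7 alleles (Atg7 fl/fl) together with the Lgr5-EGFP-IRES-CreERT2 allele. The WT mice carried Lgr5-EGFP-IRES-CreERT2 alone, so the EGFP and Cre cassette at Lgr5 and the tamoxifen, given on 5 days with killing 1 month later, were common to all groups. Cre activity follows Lgr5 expression, and cells outside the Lgr5 lineage keep Atg7. Cells low for the surface protein CD24 were split by EGFP into an EGFP high gate, labelled intestinal stem cells, and an EGFP low gate, labelled transit amplifying cells. There were 3 Atg7KO-High and 3 WT-High samples, and 4 Atg7KO-Low and 4 WT-Low samples. The labels give individual mice as the source, and the sources used here state no age, sex or gut segment. Sample names join the group and a title number. Values listed per sample run in the order Atg7KO-High-356, Atg7KO-High-348 and Atg7KO-High-386; WT-High-388, WT-High-411 and WT-High-412; Atg7KO-Low-356, Atg7KO-Low-353, Atg7KO-Low-387 and Atg7KO-Low-386; and WT-Low-341, WT-Low-407, WT-Low-409 and WT-Low-411.

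Goblet cells are secretory cells of the intestinal epithelium that make and release the mucus layer. Their fate starts when a crypt progenitor escapes Notch signalling and expresses the transcription factor Atoh1, and Spdef, an ETS transcription factor, drives maturation. Muc2, the gel-forming mucin, is folded in the endoplasmic reticulum with the help of the disulfide isomerase Agr2, packed into granules and released with Fcgbp, Clca1, Zg16 and Tff3, and autophagy proteins are known to take part in goblet granule release in the mouse colon.

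The checks of genotype and gate came first. Atg7 averaged 6.14 ± 0.23 in Atg7KO-High and 6.79 ± 0.04 in WT-High samples (SD, n = 3 each, log2 RMA values), and 5.89 ± 0.20 in Atg7KO-Low and 6.91 ± 0.43 in WT-Low samples (SD, n = 4 each). The knockout arrays lay below the wild-type arrays of the same gate, although Atg7 was not called over all genes, and probes for exons that stay intact check nothing. Lgr5 averaged 9.11 and 9.02 in Atg7KO-High and WT-High samples and 5.79 and 5.50 in Atg7KO-Low and WT-Low samples. Cd24a, which encodes the sorted surface protein, differed by at most 0.39 on the log2 scale in any of the comparisons between groups and was not called. The SD of all values on an array was lowest for Atg7KO-High-356 (1.90) and WT-Low-411 (1.90), followed by Atg7KO-High-348 (1.93), and reached 2.06 in WT-High-411.

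Regulatory sequence was at hand for part of the set. The 250 bases before the transcription start, credited to RefSeq (GRCm38.p6), were matched for 6 of the 10 genes, Muc2, Fcgbp, Agr2, Spdef, Reg4 and S100a6. They were searched on both strands for the E-box CAGCTG, a form of the motif bound by basic helix-loop-helix factors such as Atoh1, and for the forkhead motif TGTTTAC, bound by factors such as Foxa1 and Foxa2. The E-box was found before Muc2 and Fcgbp, and in 13.0% of all 32851 promoter entries. The forkhead motif was found before Reg4, on the opposite strand (GTAAACA), and in 3.17% of all entries. The TATA box TATAAA, searched on the gene's strand, was found before Muc2 at -174 and in 7.59% of all entries, and no match overlapped another. These 3 promoters are shown because they hold a match to a secretory cell factor's motif, which is in capitals. The first base of the match is at position -112 in Muc2, -208 in Fcgbp and -83 in Reg4, counted from the start. A match describes the letters and not a binding site.
Muc2, chr7:141690090-141690339, plus strand: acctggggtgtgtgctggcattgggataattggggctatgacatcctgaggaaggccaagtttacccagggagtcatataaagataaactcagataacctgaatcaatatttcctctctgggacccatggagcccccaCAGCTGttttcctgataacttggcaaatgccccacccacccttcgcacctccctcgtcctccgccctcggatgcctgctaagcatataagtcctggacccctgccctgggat
Fcgbp, chr7:28070986-28071235, plus strand: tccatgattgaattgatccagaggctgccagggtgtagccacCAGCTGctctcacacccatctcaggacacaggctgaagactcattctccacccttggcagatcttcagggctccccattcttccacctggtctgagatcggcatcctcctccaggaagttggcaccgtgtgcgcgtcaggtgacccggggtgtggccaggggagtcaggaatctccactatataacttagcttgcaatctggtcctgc
Reg4, chr3:98221906-98222155, plus strand: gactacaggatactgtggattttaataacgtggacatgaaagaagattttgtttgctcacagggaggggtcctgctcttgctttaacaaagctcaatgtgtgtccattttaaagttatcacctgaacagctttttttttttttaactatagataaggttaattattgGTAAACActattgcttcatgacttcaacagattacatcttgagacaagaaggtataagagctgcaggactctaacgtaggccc

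Across the 14 arrays the goblet genes were set first by the gate. All 6 EGFP high arrays read below all 8 EGFP low arrays for each of the 10 genes, a separation found for 1.79% of all genes tested. Group means ran in the order WT-Low, Atg7KO-Low, WT-High and Atg7KO-High from high to low for 7 genes, and for Zg16, Reg4 and S100a6 Atg7KO-Low stood above WT-Low. Within each gate the knockout and wild-type arrays overlapped for every one of the 10 genes, so neighbours of the same gate in this order are not set apart by their spread.

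**Figure D1:**
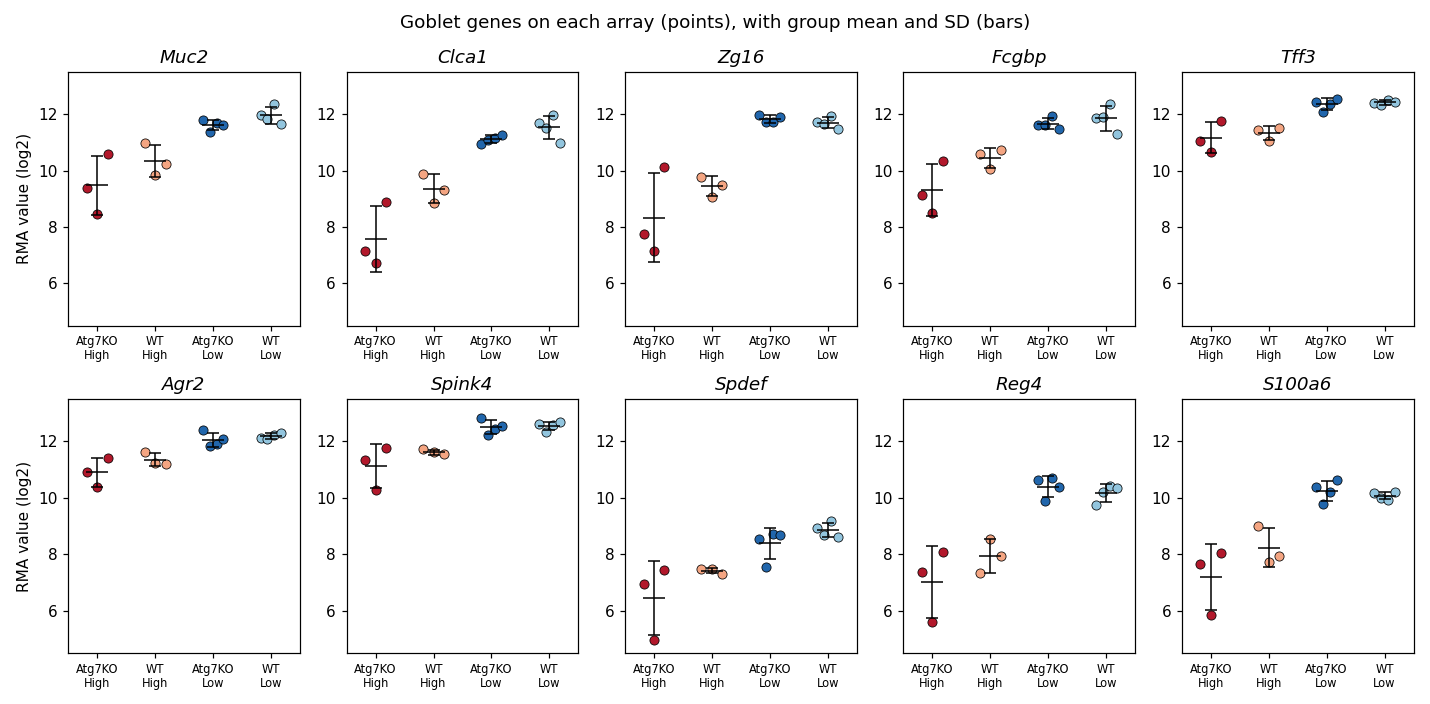
RMA values (log2, vertical axis) of the 10 goblet genes on each array, by group from Atg7KO-High to WT-Low; points are arrays and bars the group mean and SD (n = 3, 3, 4 and 4). All 6 EGFP high arrays lie below the 8 EGFP low arrays in each panel, and the Atg7KO-High points spread most, as for Zg16 at 8.33 ± 1.57 against 9.44 ± 0.35 in WT-High.

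The comparison of EGFP high with EGFP low cells shows what the gates separate. All 10 genes had negative differences in both genotypes. In the knockout limma called all 10 lower in EGFP high cells, where it called 10.9% of all genes tested and 6.44% as lower. In wild type it called 7 of the 10 lower, where 2.44% of all genes were called and 1.22% as lower. The median log2 difference of the 10 genes was -2.25 in the knockout and -1.53 in wild type, against medians of 0.02 and 0.03 over all genes. The arrays of the gates did not overlap for 10 of 10 genes in either genotype, where 11.8% of all genes in the knockout and 6.52% in wild type were lower without overlap. In bulk sorted samples a lower share of goblet cells in a gate cannot be told apart from less of these RNAs per cell.

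Among the proteins of the mucus gel, Muc2 read 8.47, 9.37 and 10.58 in the Atg7KO-High samples, against 11.38, 11.80, 11.61 and 11.70 in the Atg7KO-Low samples. It read 10.97, 9.85 and 10.22 in the WT-High samples, against 11.98, 11.84, 12.37 and 11.66 in the WT-Low samples. The gates did not overlap in either genotype, and Muc2 fell by 2.15 (SE 0.38, limma adjusted p = 0.00318) in the knockout and by 1.62 (SE 0.38, adjusted p = 0.0383) in wild type, a 4.44-fold and a 3.06-fold lower level in EGFP high cells. Clca1, a secreted protease that processes the mucus network, had the widest separation of the 10 in the knockout. It read 6.72, 7.14 and 8.90 in the Atg7KO-High samples, against 11.09, 10.95, 11.27 and 11.17 in the Atg7KO-Low samples. It read 9.89, 8.86 and 9.32 in the WT-High samples, against 11.68, 11.52, 11.96 and 10.98 in the WT-Low samples. Clca1 was thus 11.6-fold lower in the knockout (log2 difference -3.54, SE 0.40, adjusted p = 0.000298) and 4.52-fold lower in wild type (-2.18, SE 0.40, adjusted p = 0.0125).

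Zg16, a lectin that binds gram-positive bacteria in mucus, read 7.14, 7.75 and 10.11 in the Atg7KO-High samples, against 11.71 to 11.97 in Atg7KO-Low samples. In wild type it read 9.77, 9.07 and 9.49 in the WT-High samples, against 11.46 to 11.94 in WT-Low samples. The gap to the nearest EGFP low array was 1.59 in the knockout and 1.69 in wild type, and Zg16 was 11.3-fold and 4.76-fold lower (adjusted p = 0.000745 and 0.0232 by limma). Fcgbp, a large protein cross-linked into the mucus, read 8.49, 9.13 and 10.32 in the Atg7KO-High samples, against 11.48 to 11.93 in Atg7KO-Low samples. It read 10.59, 10.05 and 10.72 in the WT-High samples, against 11.29 to 12.37 in WT-Low samples. Fcgbp fell by 2.34 in the knockout (adjusted p = 0.0012) and by 1.40 in wild type (adjusted p = 0.0479), the adjusted p nearest to the threshold among the 7 calls in wild type.

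The secreted peptides followed the same order of gates with smaller differences for Tff3 and Spink4. Tff3, the trefoil peptide of goblet cells, read 10.67, 11.07 and 11.77 in the Atg7KO-High samples, against 12.07 to 12.54 in Atg7KO-Low samples. It read 11.44, 11.06 and 11.50 in the WT-High samples, against 12.31 to 12.51 in WT-Low samples. Its difference was -1.19 (SE 0.22) in the knockout and -1.08 (SE 0.22) in wild type, called in both, and these 2 values differed by -0.11 with a 95% interval of -0.76 to 0.55. Spink4, a Kazal-type serine protease inhibitor, read 10.27, 11.34 and 11.78 in the Atg7KO-High samples, against 12.23 to 12.84 in Atg7KO-Low samples, and 11.72, 11.61 and 11.54 in the WT-High samples, against 12.33 to 12.68 in WT-Low samples. Spink4 fell by 1.38 in the knockout (adjusted p = 0.00523), and in wild type it differed by -0.93 and was not called (95% interval -1.50 to -0.36, adjusted p = 0.0845). Reg4, a secreted lectin of the REG family that enteroendocrine cells also express, was 10.4-fold lower in EGFP high than in EGFP low cells of the knockout and 4.74-fold lower in wild type. It read 5.62, 7.36 and 8.08 in the Atg7KO-High samples, against 9.88 to 10.70 in Atg7KO-Low samples, and 7.34, 8.55 and 7.92 in the WT-High samples, against 9.73 to 10.43 in WT-Low samples. Reg4 was called in both genotypes (adjusted p = 0.000626 in the knockout and 0.0176 in wild type, limma).

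The folding enzyme Agr2 read 10.38, 10.91 and 11.41 in the Atg7KO-High samples, against 11.86 to 12.40 in Atg7KO-Low samples. It read 11.63, 11.25 and 11.20 in the WT-High samples, against 12.09 to 12.31 in WT-Low samples. It fell by 1.16 (SE 0.21, adjusted p = 0.00421) in the knockout, and in wild type its difference of -0.83 (SE 0.21, adjusted p = 0.0556) was not called although the arrays did not overlap. Spdef read 4.95, 6.93 and 7.44 in the Atg7KO-High samples, against 7.55, 8.56, 8.70 and 8.74 in the Atg7KO-Low samples. It read 7.49, 7.48 and 7.31 in the WT-High samples, against 8.95, 8.69, 9.19 and 8.62 in the WT-Low samples. The gates were 0.11 apart at their nearest arrays in the knockout, between Atg7KO-Low-356 and Atg7KO-High-386, and 1.14 apart in wild type. Spdef fell by 1.94 (SE 0.44, adjusted p = 0.0133) in the knockout, and differed by -1.44 (SE 0.44, adjusted p = 0.115) in wild type. S100a6, a calcium-binding protein that is not restricted to goblet cells, read 5.84, 7.67 and 8.04 in the Atg7KO-High samples, against 9.79 to 10.64 in Atg7KO-Low samples, and 9.02, 7.74 and 7.95 in the WT-High samples, against 9.93 to 10.20 in WT-Low samples. It was 8.41-fold and 3.58-fold lower in EGFP high cells and called in both genotypes.

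All 10 calls in the knockout held without any one of the 14 samples, and 7 remained with the array SD as a covariate, where Muc2, Spink4 and Spdef were not called. The 7 calls in wild type depended on single samples. Without WT-High-412 there were 0 calls by limma, without WT-High-411 or WT-Low-409 there was 1, without WT-High-388 or WT-Low-407 there were 3 and without WT-Low-341 there were 4, while the median difference stayed negative, at -1.4 or below in each of these fits. The unadjusted p in the full fit was under 0.05 for 10 of 10 genes, where 5.91% of all genes were lower at that level. The full fit shares the spread of all 14 arrays, knockout arrays included. In a limma fit of the wild-type groups alone Agr2, Spink4 and Spdef were also called (adjusted p = 0.0303, 0.0141 and 0.00635). Without Atg7KO-High-356 all 10 were called in wild type, at unchanged differences.

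**Figure D2:**
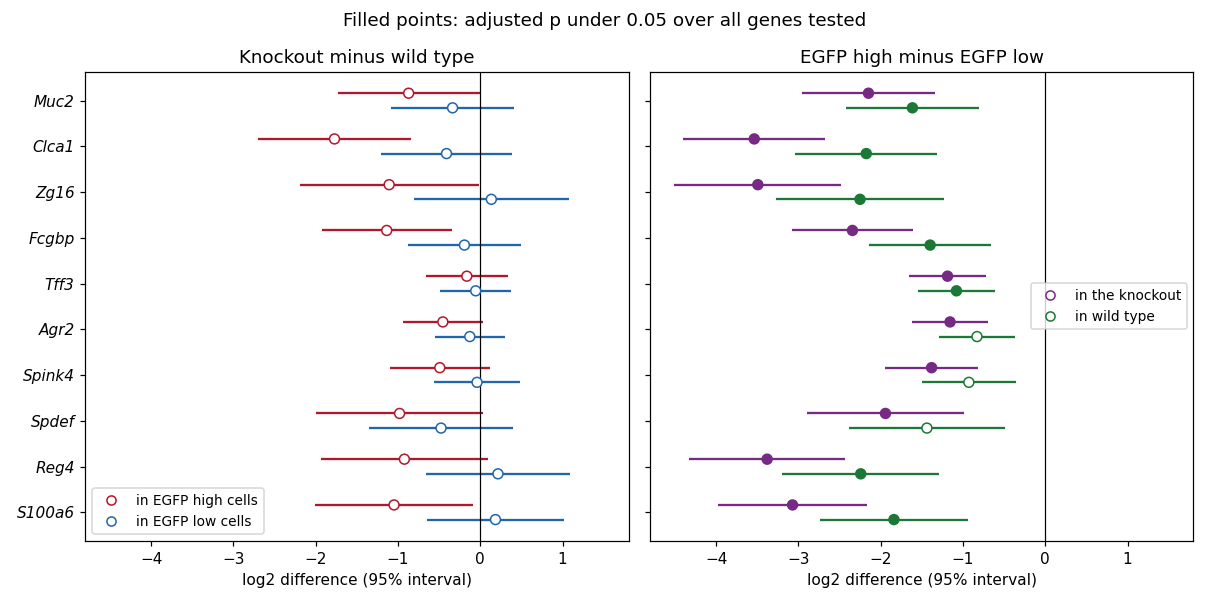
Log2 differences with 95% intervals (horizontal axis) for the 10 goblet genes, knockout minus wild type in each gate on the left and EGFP high minus EGFP low in each genotype on the right; filled points have a limma adjusted p under 0.05. On the left no point is filled and the EGFP high values run from -1.77 to -0.16, and on the right all 10 knockout points and 7 wild-type points are filled.

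The comparison of knockout with wild type asks what differs when Atg7, a gene needed to form autophagosomes, is deleted in the Lgr5 lineage. In EGFP high cells all 10 goblet genes had negative differences between knockout and wild type, with a median of -0.95 against -0.03 over all genes, while 53.8% of all genes were lower. The limma fit called 0 of the 10, and 0.0126% of all genes tested. At an unadjusted p under 0.05 there were 5 lower genes, Clca1, Fcgbp, S100a6, Zg16 and Muc2, where 9.88% of all genes were lower at that level. Clca1 differed by -1.77 (95% interval -2.70 to -0.85, adjusted p = 0.131), Fcgbp by -1.14 (-1.93 to -0.35, adjusted p = 0.189), and S100a6, Zg16 and Muc2 by -1.05, -1.11 and -0.87. Tff3 had the smallest difference, -0.16, with an interval of -0.66 to 0.33. The remaining 4, Agr2 (-0.46), Spink4 (-0.49), Spdef (-0.98) and Reg4 (-0.92), had intervals that included 0.

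The 3 knockout samples of this gate did not read alike. Atg7KO-High-356 was the lowest of all 14 arrays for 10 of 10 goblet genes and lay below all 3 wild-type arrays for each, where it did so for 39.2% of all genes. Its distance from the wild-type mean ran from -0.67 for Tff3 to -2.64 for Clca1. Atg7KO-High-348 lay below all wild-type arrays for 8 of the 10, against 35.9% of all genes, and its largest distance was -2.22, also for Clca1. Atg7KO-High-386 lay below all wild-type arrays for 0 of the 10, against 32.5% of all genes, and above all of them for 3. It was the highest of the 3 knockout arrays for 10 of 10 genes. The SD of the knockout group exceeded that of the wild-type group for 10 of 10 genes, as it did for 62.7% of all genes, and was 1.31 against 0.10 for Spdef and 0.77 against 0.09 for Spink4. The 3 knockout arrays had the same order in the SD of all their values, 1.90, 1.93 and 1.98, and the part of this in the result was not tested beyond a fit with that SD as a covariate, in which the median was -0.54. Without Atg7KO-High-356 the median was -0.30, and Clca1 differed by -1.34 and Spdef by -0.24. Without Atg7KO-High-386 it was -1.47, and Clca1, Zg16 and Fcgbp were called lower (adjusted p = 0.00647, 0.00638 and 0.042). With array weights Clca1 and Fcgbp were called (adjusted p = 0.0251 and 0.0388).

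**Figure D3:**
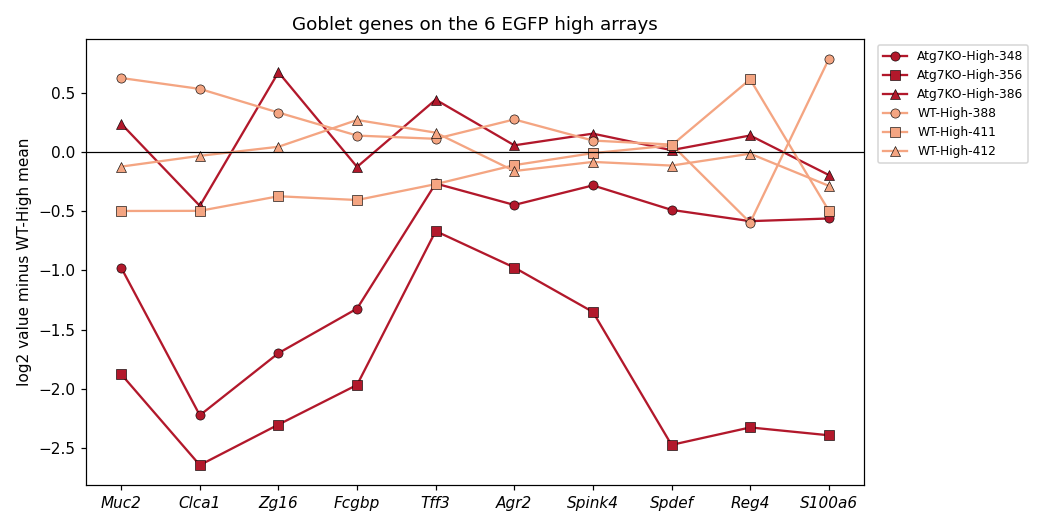
Log2 value minus the WT-High mean (vertical axis) of the 10 goblet genes on the 6 EGFP high arrays; each line is 1 array, dark for Atg7KO-High and light for WT-High. Atg7KO-High-356 is the lowest line for all 10 genes, Atg7KO-High-348 is lower than every wild-type line for 8 of them, and Atg7KO-High-386 runs among the wild-type lines or above them.

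In EGFP low cells the differences between knockout and wild type ran from -0.48 to 0.21 over the goblet genes. The median of the 10 was -0.09 against 0.00 over all genes, with 7 lower and 3 higher where 49.7% of all genes were lower, and limma called 0 of 10, where it called 0.0063% of all genes. No goblet gene reached an unadjusted p under 0.05, as 7.26% of all genes did. Muc2 averaged 11.62 ± 0.18 in Atg7KO-Low and 11.96 ± 0.30 in WT-Low samples (SD, n = 4 each). Its difference was -0.34, with a 95% interval of -1.08 to 0.41 from the spread shared by all 4 groups. Agr2, Tff3 and Spink4 had the narrowest intervals, -0.55 to 0.29, -0.49 to 0.37 and -0.57 to 0.49. Spdef had the largest difference, -0.48 (SE 0.41), with Atg7KO-Low-356 at 7.55 and the other knockout samples at 8.56 to 8.74. Atg7KO-Low-356 was the lowest of its group for 7 of the 10 genes, and the EGFP high sample with the same title number was the lowest of its own group for all 10. Reg4, S100a6 and Zg16 differed by 0.21, 0.18 and 0.13.

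The knockout effect was more negative in EGFP high than in EGFP low cells for all 10 genes, with a median difference of the effects of -0.74 and with 52.9% of all genes on that side. The interaction term of limma called 0 of the 10, with 0.0063% of all genes called. At an unadjusted p under 0.05 there was 1 of 10, Clca1, where 8.49% of all genes were lower at that level. Its difference of effects was -1.36 (SE 0.57, limma adjusted p = 0.316). Without Atg7KO-High-356 the median was -0.25, and without Atg7KO-High-386 it was -1.27 and Zg16 was called (adjusted p = 0.0333). The 2 effects are thus not shown to differ for any of the 10 genes with all samples in the fit.

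Other genes of goblet cells were followed as lists. The secretory apparatus list, 17 genes of folding, granule transport and release, was mostly lower in EGFP high cells, with 12 genes called lower and 0 higher in EGFP high cells of the knockout and 11 and 0 in wild type, at medians of -1.60 and -1.39, where 6.44% and 1.22% of all genes were called lower. Bcas1 fell by 2.75 and 2.37 and Sytl2, an effector of the granule GTPase Rab27a, by 2.66 and 2.65 in the knockout and in wild type, and Capn9, a calpain, by 2.82 and 2.54. Rab27a itself fell by 2.07 in wild type. The count in wild type was 3 without WT-High-412, 4 without WT-High-411, 6 without WT-Low-409 and 7 without WT-High-388, and that in the knockout was 9 or more without any one sample. In the knockout against wild type of EGFP high cells this list had 0 called and 1 of 17 lower at an unadjusted p under 0.05, against 9.88% of all genes. Its median was -0.39, and Tmed3, a cargo receptor of early secretory vesicles, differed by -0.67 (SE 0.23). Its median between knockout and wild type in EGFP low cells was -0.26. There Sytl4 differed by -0.51 (SE 0.13, adjusted p = 0.476) and Vamp8, a SNARE of vesicle fusion, by 0.33 (SE 0.15, adjusted p = 0.686), and neither was called.

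Among 13 tested enzymes of mucin glycosylation, 12 had negative differences between the gates in each genotype. In EGFP high cells 8 were called lower in the knockout and 5 in wild type, against 6.44% and 1.22% of all genes. The sialyltransferase St3gal4 led them and fell by 2.70 and 1.73. Gcnt3, which makes branched mucin glycans, fell likewise (log2 differences -2.61 and -1.70), and C1galt1c1, the chaperone of core O-glycan synthesis, by 1.27 and 0.98. The knockout count was 5 without Atg7KO-High-356, and the wild-type count was 0 without WT-High-411, 1 without WT-High-388 or WT-Low-409, and 2 without WT-High-412, WT-Low-341 or WT-Low-407. Between knockout and wild type in EGFP high cells 0 were called, 4 of 13 were lower at an unadjusted p under 0.05, against 9.88% of all genes, and the median was -0.39, with St3gal4 at -1.08 (SE 0.33, adjusted p = 0.181). Of 9 tested other secreted products, 7 had negative differences between the gates in each genotype. In EGFP high cells of the knockout 6 were called lower and 1 higher, against 6.44% and 4.48% of all genes. In wild type 3 were called lower, against 1.22% of all genes. Klk1, a kallikrein, fell by 2.29 and 1.46, the chemokine Ccl6 by 3.05 and 1.89, and Guca2a, the gut peptide guanylin, by 1.73 and 1.12. Agr3, a relative of Agr2 and named here after its value was seen, was the one called higher, by 1.69 (SE 0.45, adjusted p = 0.0262). Between knockout and wild type in EGFP high cells 0 of these products were called, with 6 lower and 3 higher at a median of -0.33. Ccl6 differed by -1.26 and Klk1 by -0.94, while Agr3 differed by 1.02 (SE 0.48, adjusted p = 0.315). The knockout count of called genes was 3 in place of 7 without Atg7KO-High-356, it was 4 without Atg7KO-High-348 or Atg7KO-Low-386, and the wild-type count was 0 without WT-High-411, WT-High-412 or WT-Low-409 and 1 without WT-High-388. Among membrane mucins and gel mucins of other organs, Muc5ac, Muc6 and Muc16 were below the filter. Of 6 other mucins tested, 3 were higher and 3 lower in EGFP high than in EGFP low cells of the knockout. There 0 were called lower and 1 higher, against 6.44% and 4.48% of all genes. The 1 called was Muc4, a membrane mucin, which rose by 0.78 (SE 0.13, limma adjusted p = 0.0024). The count of calls was 2 without Atg7KO-Low-353 or Atg7KO-High-386. Between knockout and wild type in EGFP high cells 3 of the 6 other mucins were higher and 3 lower, with 0 called, a median of 0.00 and Muc1, a membrane mucin, at 0.48 (SE 0.20, adjusted p = 0.265).

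Of 9 regulators of secretory fate, 0 were called between knockout and wild type in EGFP high cells, where 9 of 9 had negative differences at a median of -0.27, against 53.8% of all genes. Atoh1 read 6.16, 7.10 and 7.56 in the Atg7KO-High samples, against 8.30, 7.77 and 7.88 in the WT-High samples. The knockout and wild-type arrays did not overlap for Atoh1 or for 3 other regulators, and 15.2% of all genes were lower without overlap in this comparison. The limma difference for Atoh1 came to -1.05 (SE 0.32, adjusted p of 0.181), and Klf4, a zinc finger factor of goblet differentiation, differed by -1.06 (SE 0.35, adjusted p = 0.198), also without overlap. Atoh1 fell in EGFP high against EGFP low cells by 2.15 in the knockout and 1.39 in wild type, and Klf4 by 1.99 in the knockout. Hes1, the Notch target that represses Atoh1, rose by 0.87 (SE 0.17) in EGFP high cells of wild type, and differed by 0.09 in the knockout. Between knockout and wild type in EGFP low cells Hes1 differed by 0.49 (SE 0.16, limma adjusted p = 0.562). The difference of the knockout effects for Hes1 was -0.78 (SE 0.24, limma adjusted p = 0.243), and neither was called. It read 7.78, 7.93 and 7.69 in the Atg7KO-High samples, against 8.09, 8.15 and 8.02 in the WT-High samples. Between the gates in wild type, limma called 1 of the 9 regulators higher, Hes1, and 1 lower, Atoh1. There 1.22% of all genes were called in each direction. In the knockout 2 were called lower, Atoh1 and Klf4, and 0 higher, against 6.44% and 4.48% of all genes. The wild-type count between the gates was 0 without WT-High-412, WT-High-411 or WT-High-388, 1 without WT-Low-341 or WT-Low-409, and 4 without WT-Low-411. The forkhead factors Foxa1, Foxa2 and Foxa3 were not called in any of the comparisons.

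Markers of other crypt cell types were read in the same samples. Paneth cell markers, 14 tested, had negative knockout minus wild-type differences in the EGFP high gate for 14 of 14 genes, at a median of -1.20, with 0 called and 9 at an unadjusted p under 0.05, where 53.8% of all genes were lower and 9.88% lower at that level. In the EGFP low gate 14 of 14 were also lower, against 49.7% of all genes, at a median of -0.60, with 0 called and 3 at an unadjusted p under 0.05, where 7.26% of all genes reached it in either direction. In EGFP high cells their mean level per array was 7.96 to 8.85 in Atg7KO-High and 9.06 to 10.1 in WT-High samples, without overlap, while the mean of the 10 goblet genes was 7.86 to 9.84 and 9.55 to 9.99, with overlap. Ang4 and Itln1, an antimicrobial ribonuclease and a lectin of Paneth cells, differed by -2.30 and -2.20 in EGFP high cells, and Ang4 by -1.43 in EGFP low cells. Enterocyte markers in EGFP high cells had 13 of 13 lower, a median of -0.69 and 0 called, with 6 at an unadjusted p under 0.05. Their mean levels were 7.45 to 7.62 in Atg7KO-High and 7.60 to 8.98 in WT-High samples, and Fabp1, a fatty acid binding protein, differed by -1.41. Enteroendocrine markers in EGFP high cells had 6 of 12 lower at a median of -0.02 and mean levels of 5.36 to 7.27 and 6.10 to 6.47. The knockout effect was more negative in EGFP high than in EGFP low cells for 13 of 13 enterocyte markers (median difference of the effects -0.83). It was so for 12 of 14 Paneth markers (median -0.58), 6 of 12 enteroendocrine markers (median -0.01) and 52.9% of all genes, with 0 called in these 3 lists. Tuft, leukocyte and stromal markers had means of 4.72 to 4.75, 4.18 to 4.20 and 4.39 to 4.53 in Atg7KO-High and of 4.67 to 4.83, 4.01 to 4.41 and 4.38 to 4.43 in WT-High samples, and Ptprc, Cd3g, Cd79a, Dcn, Pdgfra, Col3a1 and Dclk1 were below the filter. The part of these cells in the goblet result was not tested. The 8 Lgr5 stem cell markers had a median of -0.04, with levels of 8.33 to 8.62 and 8.48 to 8.57, and 0 called.

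Between the gates all 8 Lgr5 stem cell markers were higher in EGFP high cells in both genotypes, while goblet genes were lower. Lgr5 itself, whose locus carries the EGFP used for sorting, is 1 of the 8, so its own difference follows from the sort. In the knockout 7 of 8 were called, where 4.48% of all genes were called higher. In wild type 8 of 8 were called (5 without WT-High-411 or WT-High-412), where 1.22% of all genes were called higher. All 12 enteroendocrine markers had negative differences between the gates in both genotypes, at medians of -1.75 in the knockout and -1.80 in wild type. Of them 9 were called lower in the knockout and 5 in wild type, where 6.44% and 1.22% of all genes were called lower. The hormone gene Cck was among them, at -2.06 and -2.28. Without Atg7KO-High-356 the knockout count was 3, and without Atg7KO-High-348 or Atg7KO-Low-386 it was 5, and the wild-type count was 1 without WT-High-411, WT-High-412 or WT-Low-409, 2 without WT-High-388 or WT-Low-407, 3 without WT-Low-411 and 8 without Atg7KO-High-356 or Atg7KO-High-386. Enterocyte markers had 13 negative differences in the knockout and 12 in wild type, and Paneth markers 13 and 11. Of the enterocyte markers 9 of 13 were called lower in the knockout and 1 in wild type, and of the Paneth markers 6 of 14 and 1. The shares of all genes called lower were 6.44% in the knockout and 1.22% in wild type. The enterocyte count in the knockout was 5 without Atg7KO-High-348, and the Paneth count was 2 without Atg7KO-High-356 and 3 without Atg7KO-High-348, Atg7KO-Low-353 or Atg7KO-Low-387. In wild type both single calls were lost without WT-High-411, WT-High-412 or WT-Low-409, the enterocyte call also without WT-Low-341 or WT-Low-407 and the Paneth call without WT-High-388. There were 2 enterocyte calls in wild type without WT-Low-411 or WT-High-388, and 2 Paneth calls without Atg7KO-Low-386. Krt20, a keratin of differentiated enterocytes, fell by 2.55 and 1.73, and Nupr1, a stress-induced nuclear protein on the Paneth list, by 2.29 and 2.18. Of 5 tested tuft markers 1 was called higher and 1 lower in the knockout, against 4.48% and 6.44% of all genes. Trpm5, a cation channel, rose by 0.58 and Avil fell by 0.68 (0 called without Atg7KO-High-348, 1 without Atg7KO-High-386 or Atg7KO-Low-386). In either genotype 0 leukocyte or stromal markers were called. Of 4 leukocyte markers 1 was higher and 1 lower in the knockout at an unadjusted p under 0.05 by limma. The share of all genes at that level in this comparison is not given here. Whether the knockout counts exceed the wild-type counts of these lists was not tested.

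**Figure D4:**
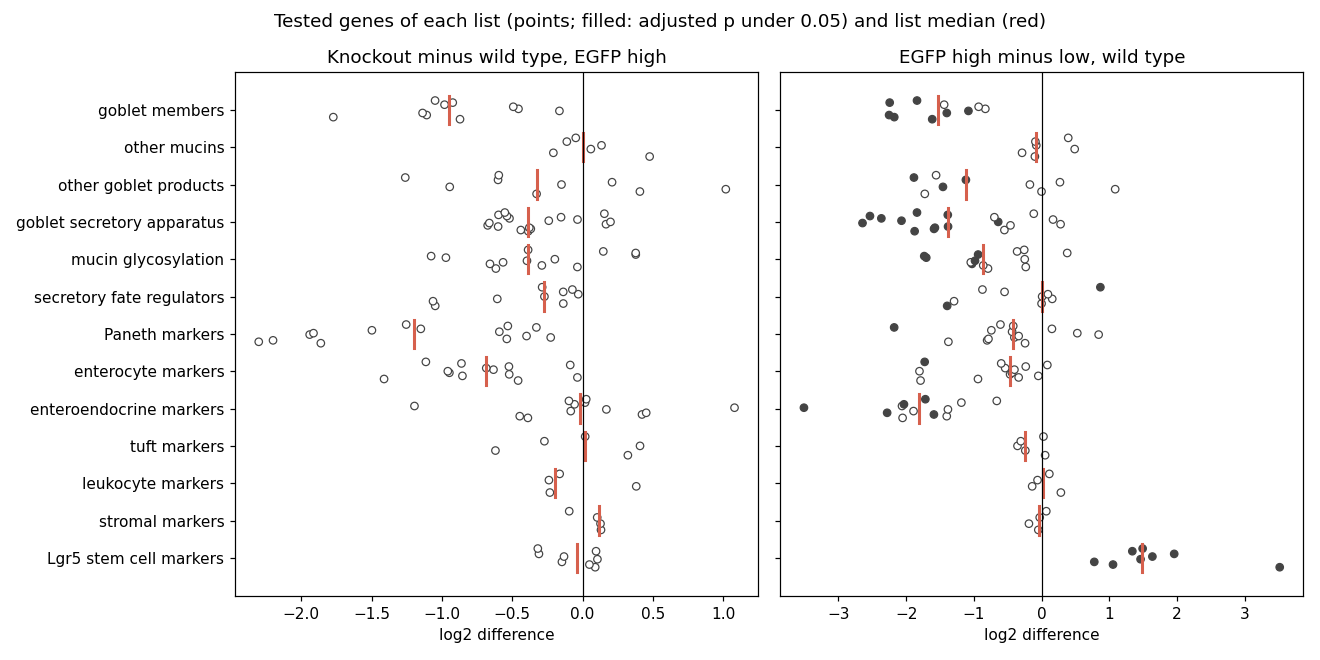
Log2 differences (horizontal axis) of the tested genes of each list, knockout minus wild type in EGFP high cells on the left and EGFP high minus EGFP low in wild type on the right; points are genes, filled where limma's adjusted p is under 0.05, and red lines are list medians. The goblet members have medians of -0.95 on the left, where no point is filled, and -1.53 on the right, where 7 of 10 are filled.

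The likeness of a gene to Muc2 was taken as Pearson's r of the deviations from the 4 group means over the 14 arrays, as a description. Outside the 10 genes the closest were Klk1 (r = 0.949, Spearman's rho = 0.824), Creb3l4 (0.937, rho = 0.960), an endoplasmic reticulum bound transcription factor, Hepacam2 (0.914, rho = 0.868), Selenom (0.911, rho = 0.837) and Ccl6 (0.908, rho = 0.886). Among the 10, Clca1 (0.935, rho = 0.846) and Zg16 (0.916, rho = 0.83) were closest to Muc2 and Reg4 (0.538, rho = 0.257) least close. Atg7KO-High-386 and Atg7KO-High-356, at the largest deviations for Muc2 on either side, carried much of this. Without both, r was 0.839 for Klk1 and 0.869 for Creb3l4, and fell to 0.317 for Spink4, 0.387 for Spdef and -0.38 for Reg4. Within the 8 EGFP low arrays r with Muc2 was 0.898 for Creb3l4, 0.824 for Spdef, 0.822 for Clca1 and 0.794 for Fcgbp, against 0.553 for Tff3, 0.467 for Agr2, 0.387 for Spink4, 0.356 for Zg16, 0.117 for Reg4 and -0.15 for S100a6. Ranked by r over all 14 arrays, where the gates form separate clusters, Klk1, Creb3l4, Ccl6, Guca2a and Scin came first outside the 10.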

How the data were processed

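RNA of 14 sorted samples, amplified from 1 ng, was hybridised to Mouse Gene 2.0 ST arrays. Values are the authors' log2 RMA values, for which the submitters' processing notes name Expression Console (Affymetrix) and RMA, both without a version in the sources used here. RMA as usually run includes quantile normalization, so a value is relative to the other genes of its array. Of 25429 probe sets, 24675 carry 1 gene symbol in the platform annotation and 754 none; no symbol had over 1 probe set. A gene was tested where 3 or more arrays placed it no lower than their own 40th percentile, which kept 15873. The fit used limma 3.58.1 in R 4.3.3 with 1 mean per group, all 14 arrays sharing the spread (10 residual degrees of freedom), 5 contrasts and Benjamini-Hochberg adjustment over 15873 genes. A gene was called at an adjusted p under 0.05. P-values and intervals use a spread shared by all 4 groups, which limma moderates over genes (4.54 prior degrees of freedom). An interval therefore need not follow the SDs of its own groups, and the number of samples limits precision. With 3 against 3 samples an exact permutation test cannot go below 0.1, so none was used.

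All 10 goblet genes are named in each comparison; from each other list the text takes its genes from up to 4 called genes with the smallest p, or the 2 with the smallest p where none was called, and the 5 genes most like Muc2. Agr3, the forkhead factors Foxa1, Foxa2 and Foxa3, and the genes below the filter are named outside this rule. Members and lists were chosen with earlier results of these data known. Group labels come from sample titles. Title numbers may be those of mice, which the labels do not state, and the fit did not use them as pairs. Alternatives were other filters, normalizations, priors, array weights, array SD as a covariate, a replicate block and leaving out arrays; calls of the other lists without single arrays were added after seeing the data. The limma fit was tested on simulated data. Promoters are from RefSeq (GRCm38.p6). Genes of the lists with no probe set in the table used were not analysed here.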

Additional observations from a re-analysis of the deposited data

Results flagged for a closer look

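Spdef in Atg7KO-Low-356 stood apart from the other 3 samples of its group. It read 7.55, against 8.56 for the next and 8.74 for the highest Atg7KO-Low sample, and its gap to the next sample was 0.849 of the group's range, above Dixon's 95% critical value for 4 samples. It was the 1 value to pass among 20 combinations of a goblet gene and a group of 4 samples, where chance gives about 1 in 20.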

How the results depend on the processing

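Between EGFP high and EGFP low cells all 10 goblet genes kept negative differences under every alternative run. The knockout calls numbered 7 with the array SD as a covariate (Muc2, Spink4 and Spdef lost) and 9 in a fit of its own groups alone, and 10 under every other alternative, including each left-out sample. In wild type there were 4 calls without the filter, 5 with median centring, 10 with array weights or only its own groups, and 0 to 10 with each sample left out. Between knockout and wild type in EGFP high cells there were 2 calls with array weights and 0 to 3 with each sample left out, and the median ran from -1.47 to -0.30. The median difference of the knockout effects was -0.23 without the 2 arrays with the least spread (WT-Low-411 and Atg7KO-High-356) and ran from -1.27 to -0.25 with each sample left out, with 0 to 1 calls. The cause of these shifts was not tested.

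No called gene turned its sign. Signs that turned belonged to differences that were not called. Without the 2 narrowest arrays Tff3 differed by 0.087 between knockout and wild type in EGFP high cells and Spink4 by 0.0018 in EGFP low cells, and the difference of the effects was 0.14 for Tff3, 0.32 for Spdef and 0.069 for Muc2. It was 0.17 for Tff3 with cyclic loess and 0.025 for Spdef with the array SD as a covariate. Spink4 in EGFP low cells differed by 0.033 after repeated quantile normalization and 0.031 with array weights. With each sample left out, Tff3 ran from -0.47 to 0.087 between knockout and wild type in EGFP high cells and from -0.12 to 0.039 in EGFP low cells, Spink4 from -0.15 to 0.055 in EGFP low cells, and the difference of the effects from -0.41 to 0.14 for Tff3 and from -1.0 to 0.24 for Spdef. Median centring moved the median of all genes to -0.14 for the knockout effect in EGFP high cells and -0.16 for the difference of the effects.

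With the title number as a replicate block there were 0, 0, 8, 10 and 0 calls and medians of -0.95, -0.10, -1.52, -2.24 and -0.74 for the knockout effect in EGFP high and in EGFP low cells, EGFP high against low in wild type and in knockout, and the difference of the effects. Only 3 numbers occur in both gates and none in both genotypes. The deviations of the same-numbered samples correlated at 0.115 (Atg7KO-Low-356 and Atg7KO-High-356), 0.182 (Atg7KO-Low-386 and Atg7KO-High-386) and -0.04 (WT-Low-411 and WT-High-411), where the EGFP low sample's highest correlation with another EGFP high sample of its genotype was -0.031, -0.035 and 0.144. Deviations of the 3 EGFP high samples of a genotype sum to 0 for each gene, so a positive correlation with 1 of them pushes the others down. These correlations therefore cannot decide whether the title numbers mark pairs, and the labels do not settle it. Differences between fits do not rank the settings, and 3 or 4 arrays a group limit what can be called.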
